A study of Mus musculus with 16 samples.

Results

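Macrophages of obese mouse fat were sorted by the surface protein CD11c, and the genes that differed between the cells with and without it are described here. The comparison rests on 8 of the 16 arrays of the series, chosen by their titles: 4 arrays of FBC cells from obese mice against 4 arrays of FB cells from obese mice. FB cells carried F4/80, the macrophage antigen encoded by Adgre1, and CD11b, the integrin chain encoded by Itgam, but not CD11c. FBC cells carried both of these and CD11c, the integrin chain encoded by Itgax. All cells came from the stromal vascular fraction of collagenase-type digests of perigonadal fat of C57BL/6J mice aged 12 to 14 weeks. The obese mice were leptin-deficient (Lep ob/ob) in both groups, so obesity here is that of one mutation, and no group had obesity from diet. The remaining 8 arrays, 4 of FB and 4 of FBC from lean mice of the same strain (Lep +/+), serve as a second look at the same gate. The labels do not say whether arrays of the same number come from the same mouse, so a p-value here speaks of the spread from array to array, which may be technical. The labels of FBC samples write the CD11c entry of one field ambiguously, while the sample descriptions give it as positive. RNA was amplified in 2 rounds, and each sample was hybridised to a whole-genome Affymetrix array.

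Adipose tissue macrophages clear dead adipocytes and take up the lipid these release. In obesity their number grows, largely from blood monocytes that enter the fat, lose monocyte genes and build up lysosomes and lipid handling as they mature, and many of the cells around dying adipocytes carry CD11c. Such cells share genes with osteoclasts, the bone-resorbing relatives of macrophages, because both acidify compartments with a proton pump and digest material with cathepsins. Macrophages that live in the tissue, often along vessels, carry another set of genes, among them scavenger receptors and complement.

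Values are log2(intensity + 16) after the arrays were brought to one distribution. A level is that value on an array, and a difference is the mean of the 4 FBC arrays minus the mean of the 4 FB arrays, with its standard error. A gene is called when its limma p, adjusted by Benjamini-Hochberg over the 11908 genes bright enough to test, is under 0.05, and called genes are said to be higher or lower in FBC. Only differences of called genes are described as changes. The added 16 makes differences of dim genes smaller than they are, and a probe set's level is not set against another's.

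Macrophage markers were bright on every array. The 7 macrophage markers Csf1r, Cd68, Mertk, Fcgr1, Lyz2, Cd14 and C1qa lay between 9.53 and 13.68 on the 8 arrays, well above the array median of 5.87. Itgax, the gate itself, was at 8.70, 8.57, 9.31 and 8.55 in FB and at 11.48, 10.59, 11.11 and 10.77 in FBC. Each FBC array lay above each FB array, which checks the labels and is no finding. Adgre1 and Itgam, which both gates required, differed by 0.69 ± 0.24 (adjusted p = 0.0806) and -0.06 ± 0.29 (adjusted p = 0.923), and neither was called. FB array 4 stood apart from the other FB arrays, with correlations of 0.946 to 0.954 against 0.963 to 0.984 among the other 3, and its ratio of 3' to 5' actin probe sets, a sign of RNA quality, was 45.0 against 1.15 to 5.76 on the other 7. By the same ratio of Gapdh, FB array 4 (28.0) and FBC array 3 (28.1) stood apart from the other 6 (3.05 to 10.7). FB array 1 correlated as well with FBC array 1 (0.963) as with FB array 2 (0.963). FBC arrays 2 and 3 resembled each other (0.978), as did FBC arrays 1 and 4 (0.980). In bulk RNA, fewer cells of a type and less RNA per cell cannot be told apart.

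Of the genes tested, 999 (8.39%) were called, 609 higher (5.11%) and 390 lower (3.28%) in FBC. Every count of called list members below is to be read beside these shares. By at least 2-fold, 335 genes were higher (2.81%) and 220 lower (1.85%). At an unadjusted p under 0.05 there were 2988 genes. The FBC and FB arrays did not overlap for 915 of the called genes and overlapped for the other 84; among all tested genes the FBC arrays lay wholly above the FB arrays for 11.0% and wholly below for 6.63%. The median difference over all tested genes was 0.08. Median centring of the arrays in place of the common distribution gave 907 higher and 318 lower, with a median of 0.13. The count moved by over 1.5 times without FB array 2 (652), FB array 4 (606) or FBC array 2 (553). None of the 24 leading genes below lost its call under any alternative planned for these data. These 24 were chosen from called genes whose FBC and FB arrays do not overlap, so their lack of overlap is no finding.

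**Figure D1:**
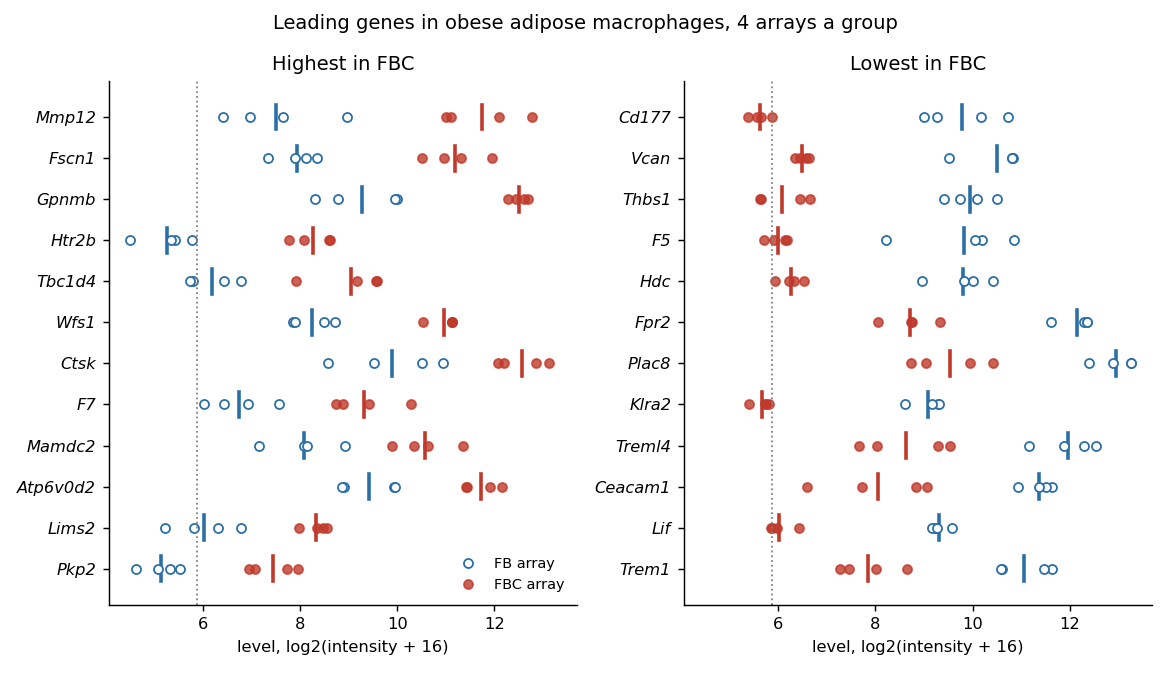
Levels of the 12 highest and 12 lowest called genes on each array, in log2(intensity + 16); open blue points are the 4 obese FB arrays, filled red points the 4 obese FBC arrays, thick bars the group means, and the dotted line the array median of 5.87. The 24 genes were chosen from called genes whose groups do not overlap, and the FBC arrays of Cd177, Klra2 and Lif lie near the array median.

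The highest gene in FBC was Mmp12, macrophage elastase, which cuts elastin and other matrix proteins. Its levels were 8.97, 6.96, 7.65 and 6.41 in FB and 12.77, 11.00, 11.11 and 12.09 in FBC, a 19.0-fold difference (4.25 ± 0.55, adjusted p = 0.000225). The lowest FBC array was above the highest FB array by a wide margin, and FBC arrays 1 and 4 were the highest. Gpnmb, a glycoprotein of lysosomal and melanosomal membranes, stood at 10.00, 8.77, 9.95 and 8.30 in FB and at 12.69, 12.28, 12.44 and 12.60 in FBC (3.25 ± 0.37, adjusted p = 8.89e-05). Its FBC arrays were nearly alike, while its FB arrays spread. Both belong to a list of genes of lipid-associated macrophages, the cells that ring dying adipocytes, of which 8 of 24 tested members were higher and 0 lower, beside 5.11% and 3.28% of all genes. The others called were Atp6v0d2, Pld3 (2.22), Ctsd (1.66), Lipa (0.85), Fabp5 (0.75) and Plin2 (0.59), which serve the lysosome, fatty acid binding and lipid droplets. Not called were Trem2 (1.51 ± 0.79, adjusted p = 0.247), the lipid-sensing receptor that defines these cells, and Cd9 (0.98), Lpl (-0.01) and Lgals3 (-0.01). The median of the list was 0.65, but 0.30 with median centring and 0.34 with the actin ratio as a covariate.

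Of 39 tested lysosomal hydrolases and membrane proteins 13 were higher in FBC and 0 lower, beside 5.11% of all tested genes called higher. Their median difference was 0.62. For 24 of the 39 the lowest FBC array exceeded the highest FB array, beside 11.0% of all tested genes. Cathepsin K, Ctsk, a collagen-cutting protease best known from osteoclasts, led the list. It was at 10.50, 9.51, 10.93 and 8.57 in FB and 13.12, 12.19, 12.07 and 12.85 in FBC (6.40-fold, 2.68 ± 0.46, adjusted p = 0.00197). Its groups were separate, with FB array 4 the lowest. Pla2g15, the lysosomal phospholipase, was at 9.34, 9.07, 8.93 and 7.40 in FB and 10.48, 11.09, 10.86 and 10.77 in FBC (2.11 ± 0.39, adjusted p = 0.00323). Here too FB array 4 lay furthest below. The other proteases called were Ctsf (1.85 ± 0.54, adjusted p = 0.043), Ctsd (1.66) and Ctsa (0.71), and the glycosidases and sulfatases were Gusb (1.46), Naglu (1.12), Fuca1 (1.10), Glb1 (1.05) and Galns (0.96), which strip sugars and sulfate from glycans. Smpd1 (0.94), the acid sphingomyelinase, Lipa (0.85), the acid lipase that frees cholesterol and fatty acids, and Cln3 (0.66), a membrane protein, completed them. The cathepsins Ctsb (-0.11), Ctsc (-0.09), Ctss (0.04) and Ctsz (0.17) were not called.

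The mean level of the lysosomal list was 11.02, 10.94, 11.04 and 10.38 on the FB arrays and 11.55, 11.59, 11.55 and 11.52 on the FBC arrays. The FBC arrays were almost level, and FB array 4, the array of high actin ratio, was the lowest. Without that array 6 of the 39 members were called higher and the median was 0.52; without FBC array 2 or FBC array 3 the count was also 6, and without FBC arrays 2 and 3 together it was 5. The call of Ctsf ended without FB array 4 (adjusted p = 0.132), FB array 2 (0.0626), FBC array 2 (0.125), FBC array 3 (0.0987) or FBC array 4 (0.0693). It ended too with the mean of its probe sets (0.92, adjusted p = 0.104), with the actin ratio as a covariate (1.11, adjusted p = 0.0916), with no filter on dim genes (adjusted p = 0.0613) and with a pseudocount of 1 (2.60, adjusted p = 0.0873). With that covariate the list had 6 called members and a median of 0.41.

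The promoters of these genes are shown because many lysosomal genes are known to carry an element built round the letters CACGTG, the E-box core of the CLEAR element, which MiT family factors such as TFEB bind. The 250 bases before each gene start were searched for CACGTG, which reads the same on both strands, and for its longer form TCACGTGA, also the same on both strands and always holding a CACGTG. Of the 15 lysosomal and proton pump genes called higher, 13 had a promoter in the RefSeq table (GRCm38.p6), and 6 of them (46.2%) held CACGTG. It was held by 14 of 45 tested lysosomal and pump genes with a promoter (31.1%), by 9.96% of tested genes and by 6.86% of all genes in the table. Among all called genes with a promoter the shares were 11.6% of those higher and 11.1% of those lower. TCACGTGA was found in 3 of the 13 genes, in 1.83% of tested genes and in 0.907% of all genes in the table. It was held by 2.6% of all genes called higher and 0.327% of those called lower. A match is a description of letters, not a bound site, and these genes were chosen by their difference. In the 6 windows below, 5′ to 3′ in the direction of each gene, capitals mark every CACGTG, and the first 3 genes hold the longer form. Ctsd holds another CACGTG outside its window.
Cln3: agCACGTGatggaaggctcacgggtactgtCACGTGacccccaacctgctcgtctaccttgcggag
Ctsa: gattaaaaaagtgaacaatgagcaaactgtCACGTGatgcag
Ctsd: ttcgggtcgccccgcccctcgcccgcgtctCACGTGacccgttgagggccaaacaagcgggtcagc
Ctsf: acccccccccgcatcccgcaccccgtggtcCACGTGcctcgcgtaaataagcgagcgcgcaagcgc
Glb1: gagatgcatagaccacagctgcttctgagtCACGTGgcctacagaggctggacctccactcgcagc
Naglu: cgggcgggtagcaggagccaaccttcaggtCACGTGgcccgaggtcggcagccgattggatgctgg
The windows lie at chr7:126583322-126583387 on the minus strand for Cln3, chr2:164833731-164833772 on the plus strand for Ctsa, chr7:142387890-142387955 on the minus strand for Ctsd and chr19:4855056-4855121 on the plus strand for Ctsf. Those of Glb1 and Naglu lie at chr9:114401000-114401065 and chr11:101069991-101070056, both on the plus strand. The marked core begins 121 bases before the start of Cln3 (the one in the longer form), 12 before Ctsa, 98 before Ctsd, 79 before Ctsf, 48 before Glb1 and 73 before Naglu. Of the genes that encode the factors, Mitf differed by 0.42, Tfe3 by 0.22, Tfeb by 0.07 and Tfec by 0.53, none called. The median absolute difference over all tested genes was 0.3. The part of these factors was not tested. Ctsk and Pla2g15, the furthest apart of the lysosomal genes, hold no CACGTG in this window.

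The proton pump that acidifies lysosomes changed in only a few subunits. Of 17 tested members 2 were higher, beside 5.11% of all tested genes, and 0 lower. Atp6v0d2, an isoform of osteoclasts and activated macrophages, was at 9.92, 8.90, 9.96 and 8.85 in FB and 12.15, 11.42, 11.44 and 11.90 in FBC (4.99-fold, 2.32 ± 0.35, adjusted p = 0.000678). The groups did not overlap, and FBC arrays 1 and 4 were again the highest. Tcirg1, the osteoclast-type subunit that threads protons through the membrane, differed by 0.98 ± 0.17 (adjusted p = 0.00229). The widely used subunits Atp6v0d1 (0.23), Atp6v1d (0.11) and Atp6v1h (-0.14) were not called.

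Of 20 tested genes of osteoclasts and of cell fusion 8 were higher, beside 5.11% of all genes, and 0 lower, with a median of 0.62. Besides Ctsk, Atp6v0d2 and Tcirg1 these were Dcstamp, a membrane protein needed for macrophages to fuse, Car2 (1.83), the carbonic anhydrase that supplies protons, Acp5 (1.58), the tartrate-resistant phosphatase, Adam8 (1.54), a membrane protease, and Clcn7 (1.16), the lysosomal chloride transporter. Dcstamp levels were 6.90, 5.87, 6.96 and 6.38 in FB and 9.19, 7.79, 7.66 and 8.98 in FBC (1.88 ± 0.34, adjusted p = 0.00264). All FBC arrays were above all FB arrays, with arrays 1 and 4 highest. The factor Nfatc1 (-0.12), which directs osteoclast formation, the receptor Tnfrsf11a (0.33) and Itgb3 (-0.84) were not called. The count stayed at 8 or 9 when any obese array was left out.

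Fatty acid handling shifted at single steps. Of 22 uptake and storage genes 5 were higher and 1 lower. Mgll, the lipase that splits monoacylglycerol, was at 5.85, 5.48, 6.45 and 5.79 in FB and 7.12, 7.29, 8.42 and 7.55 in FBC (1.70 ± 0.40, adjusted p = 0.0155). The groups were separate, and FBC array 3 was the highest. Slc27a1, a fatty acid transporter, differed by 1.43 ± 0.22 (adjusted p = 0.000971), and Pnpla2 (1.01), the first lipase of stored triglyceride, was higher too, with overlapping arrays. Dgat2, which makes triglyceride, was lower (-1.01 ± 0.19, adjusted p = 0.0031). Cd36 (0.70, adjusted p = 0.0991), Fabp4 (0.27) and Pparg (-0.12), the uptake receptor, a fatty acid carrier and the nuclear receptor for fatty acids, were not called. The call of Mgll ended without FB array 2 (adjusted p = 0.0501) or FBC array 3 (0.0519), with the mean of its probe sets (0.80, adjusted p = 0.0628) and with a pseudocount of 1, under which another of its probe sets was the brightest (0.66, adjusted p = 0.373).

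Cholesterol export genes were higher in part, 4 of 16 higher and 1 lower with a median of 0.56. Of all tested genes 5.11% were called higher and 3.28% lower. Nceh1, which splits cholesterol esters, differed by 1.23 ± 0.27 (adjusted p = 0.00957), Abcg1, a cholesterol exporter, by 0.92 ± 0.23 (adjusted p = 0.0206), and Nr1h3, the sterol-sensing receptor that drives Abcg1, by 0.71. Apoc2, the cofactor of lipoprotein lipase, was the member that fell, by 1.44 on the log2 scale (± 0.32, adjusted p = 0.00957). Its levels of 9.91, 10.13, 10.32 and 9.77 in FB lay above the 8.12, 8.60, 9.32 and 8.33 in FBC, with FBC array 3 closest to the FB arrays. Of 22 genes of sterol and fatty acid synthesis none passed limma's threshold, and their median was -0.11. Abcg1 lost its call without FB array 2 (adjusted p = 0.0713) or FBC array 2 (0.0767).

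Fatty acid oxidation in mitochondria was the energy pathway with most calls, 7 of 21 higher and 0 lower with a median of 0.47. Of all tested genes 5.11% were called higher and 3.28% lower. Pdk4 (1.13 ± 0.28, adjusted p = 0.0181) restrains glucose use, Cpt2 (1.05 ± 0.26, adjusted p = 0.0192) hands fatty acids to the matrix, and Acaa2 (0.97 ± 0.28, adjusted p = 0.0436), Acadl (0.92), Acadm (0.86), Ech1 (0.81) and Decr1 (0.74) carry out the steps of the cycle. Acaa2 stood at 9.63, 9.78, 9.84 and 9.41 in FB and at 9.87, 11.30, 11.35 and 10.04 in FBC. The separation was narrow on FBC arrays 1 and 4 and wide on FBC arrays 2 and 3. Without FBC arrays 2 and 3 only 1 member of the list was called, without FB array 4 or FBC array 2 there were 3 and without FBC array 3 there were 4, and the median stayed between 0.41 and 0.54 whichever array was left out. Cpt2 differed by 0.47 on the mean of its probe sets (adjusted p = 0.123). The calls of Cpt2 and Acaa2 ended without FB array 4 (adjusted p = 0.068 and 0.115) or FBC array 2 (0.069 and 0.146), that of Acaa2 also without FB array 1, 2 or 3 (0.0703, 0.0746 and 0.0624) or FBC array 3 (0.124), and that of Pdk4 without FB array 3 (0.0545), FBC array 2 (0.0572) or FBC array 3 (0.0574).

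Respiratory chain subunits did not move together, with 2 of 32 higher (Atp5b by 0.94 and Ndufs3 by 0.58), 1 lower (Ndufb3, -0.69) and a median of -0.12. Of 16 glycolysis genes 3 were higher, namely Hk3 (0.94 ± 0.19, adjusted p = 0.00648), a hexokinase of myeloid cells, Ldha (0.92 ± 0.25, adjusted p = 0.0301), which makes lactate, and Aldoa (0.79). Hk2 (-0.73), the inducible hexokinase, and Slc2a6 (-1.23 ± 0.34, adjusted p = 0.0328), a sugar transporter, were lower, and the main glucose transporter Slc2a1 (-0.92) was not called. Each of Atp5b, Ndufs3, Ndufb3, Ldha and Slc2a6 lost its call without FB array 4 (adjusted p = 0.072, 0.0875, 0.124, 0.0962 and 0.0668) and without FBC array 2 (0.0789, 0.0818, 0.128, 0.0655 and 0.109), and without others in part.

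**Figure D2:**
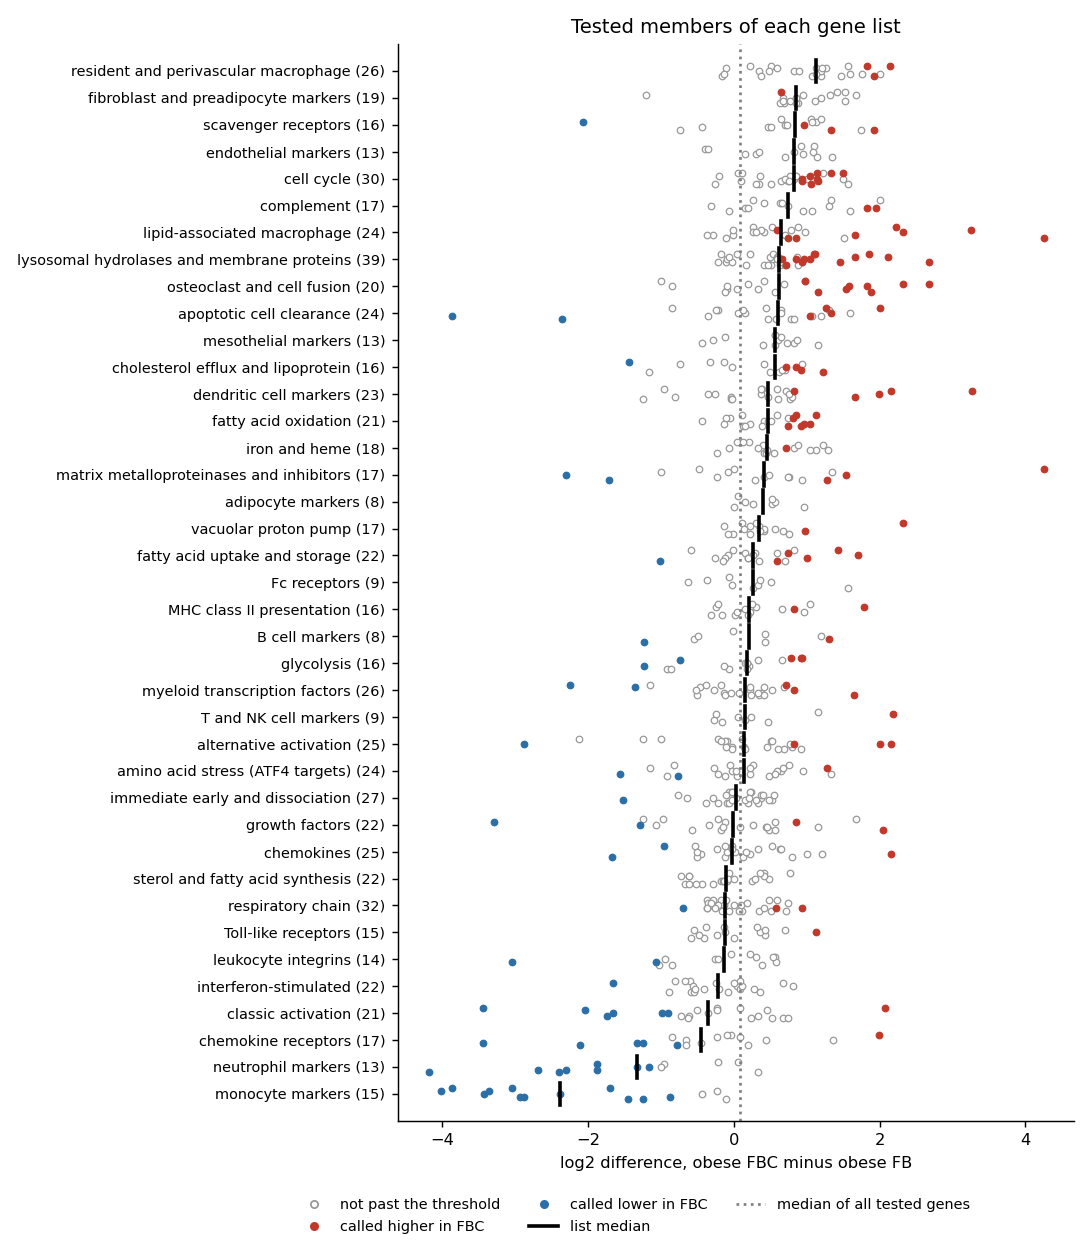
Each point is a tested gene of the list at left (number tested in brackets), placed by its log2 difference between obese FBC and obese FB; filled red points were called higher, filled blue points lower and open points neither, black bars are list medians and the dotted line the median of all tested genes, 0.08. Monocyte markers lie furthest left, with a median of -2.38, and resident macrophage genes furthest right, at 1.13, with few of the latter called.

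Several leading genes belong to no list above. Fscn1, which bundles actin in mature dendritic cells, was at 8.34, 7.33, 7.88 and 8.11 in FB and 10.51, 10.96, 11.32 and 11.94 in FBC (9.62-fold, 3.27 ± 0.29, adjusted p = 1.37e-05). The FBC arrays were all above the FB arrays, and FBC array 4 was the highest. With the mean of its probe sets Fscn1 differed by 0.87 (adjusted p = 0.00295). Htr2b, a serotonin receptor, was near background in FB, at 5.77, 4.49, 5.41 and 5.33, and at 8.58, 8.62, 8.08 and 7.77 in FBC (3.02 ± 0.31, adjusted p = 4.01e-05). Wfs1, a protein of the endoplasmic reticulum membrane, was at 8.72, 7.85, 8.48 and 7.88 in FB and 11.12, 11.12, 10.53 and 11.12 in FBC (2.74 ± 0.28, adjusted p = 4.53e-05). FBC array 3 was the lowest of its group for Wfs1, and no array of the groups overlapped for either gene. Also among the 12 highest were Tbc1d4 (2.87 ± 0.44), which regulates glucose transporter traffic, F7 (2.60 ± 0.33), coagulation factor VII, Mamdc2 (2.49 ± 0.40), Lims2 (2.31 ± 0.39), an adhesion adaptor, and Pkp2 (2.30 ± 0.27), a desmosome protein, with adjusted p of at most 0.00165.

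Dendritic cell markers were higher in part, 5 of 23 beside 5.11% of all genes, with 0 lower and a median of 0.47. With Fscn1 these were Ccl22 (2.16 ± 0.36, adjusted p = 0.00146), a chemokine of activated dendritic cells and macrophages, Ccr7 (1.99 ± 0.38, adjusted p = 0.00424), the receptor that leads cells to lymph nodes, Kit (1.66 ± 0.27, adjusted p = 0.00146) and the factor Irf4 (0.83). Ccr7 was at 6.22, 5.99, 5.88 and 6.42 in FB and at 8.43, 7.22, 7.44 and 9.37 in FBC. FBC array 4 was the highest and FBC array 2 the lowest of the separate FBC group. Kit differed by 0.88 on the mean of its probe sets and stayed called. Genes that define conventional dendritic cells, Flt3 (0.61), Zbtb46 (0.47), Irf8 (0.38) and Batf3 (-0.04), were not called. Of 16 genes of MHC class II presentation 2 were higher, H2-Eb2 (1.78 ± 0.31, adjusted p = 0.00197) and the thiol reductase Ifi30 (0.83 ± 0.18, adjusted p = 0.00865), while the main chains Cd74 (0.25), H2-Ab1 (0.23) and H2-Aa (-0.16) were not called.

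Of 15 tested monocyte markers 12 were lower in FBC and 0 higher, with a median of -2.38, beside 3.28% of all tested genes called lower. The mean level of the list was 11.49, 12.12, 12.05 and 11.84 on the FB arrays and 9.83, 9.52, 9.66 and 9.99 on the FBC arrays. Vcan, the matrix proteoglycan versican made by classical monocytes, was at 9.51, 10.83, 10.82 and 10.82 in FB and 6.44, 6.35, 6.56 and 6.62 in FBC (16.1-fold lower, -4.01 ± 0.33, adjusted p = 7.26e-06). FB array 1 was below its 3 near-identical companions but far above every FBC array. Vcan differed by -1.49 on the mean of its probe sets and stayed called. Plac8 was at 12.41, 13.26, 13.27 and 12.90 in FB and 9.94, 8.73, 9.04 and 10.43 in FBC (-3.42 ± 0.54, adjusted p = 0.00107). Chil3, a chitinase-like protein of monocytes, was at 13.42, 13.60, 13.56 and 13.61 in FB and 10.28, 11.20, 10.72 and 10.45 in FBC (-2.88 ± 0.45, adjusted p = 0.00098). Both were lower on each FBC array than on any FB array. Thbs1 (-3.86 ± 0.72), thrombospondin, Treml4 (-3.35 ± 0.58), Itgal (-3.04 ± 0.50), the chain of the integrin LFA-1, Hp (-2.93), haptoglobin, Ms4a4c (-2.38), F10 (-1.70), Spn (-1.45), Ccr2 (-1.25), the receptor for monocyte chemokines, and Fn1 (-0.87), fibronectin, were the others called. S100a4 (-0.43), Mgst1 (-0.23) and F13a1 (-0.11) were not. The count was 11 whichever obese array was left out, 10 without FB arrays 2 and 3 and 8 without FBC arrays 2 and 3, where Thbs1 (adjusted p = 0.0599) and Treml4 (0.0528) lost their calls.

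Of 13 tested neutrophil markers 8 were lower and 0 higher, with a median of -1.32, beside 3.28% of all genes called lower. Cd177, a surface glycoprotein of neutrophils, was the lowest gene of all, at 9.27, 10.73, 10.17 and 8.99 in FB and 5.38, 5.55, 5.65 and 5.86 in FBC (18.2-fold, -4.18 ± 0.42, adjusted p = 3.67e-05). FB arrays 2 and 3 were its highest, and the FBC arrays lay near background. S100a9 (-2.68 ± 0.55, adjusted p = 0.00614) and S100a8 (-2.40 ± 0.59, adjusted p = 0.0184), the calprotectin chains of neutrophils and monocytes, were lower with overlapping arrays, with FBC array 3 at 7.05 and 9.07 against at most 5.00 and 6.65 on the other FBC arrays. Mmp8 (-2.30 ± 0.36), neutrophil collagenase, Lcn2 (-1.88), Padi4 (-1.87), Cxcr2 (-1.32) and Stfa2l1 (-1.16) were the others called. Of the granule genes that define neutrophil precursors, Camp (at most 5.44), Elane (at most 5.92) and Ltf (at most 6.18) were not bright enough to test. Camp was below the array median on all 8 arrays, while Ltf was above it on 1, Elane on 2, Mpo on 3 and Ngp on 4. Mpo was at 5.53 to 6.44 in FB and 5.34 to 5.97 in FBC, and Ngp at 5.51 to 6.00 and 5.72 to 6.92. Mpo (-0.21) and Ngp (0.33) were not called. The mean level of the list was 6.75, 8.04, 8.06 and 7.25 on the FB arrays and 5.62, 5.95, 6.67 and 5.84 on the FBC arrays, so FB array 1 lay close to FBC array 3. The part of neutrophils in these differences was not tested. The count was 3 without FB array 2 or FBC array 4, 4 without FB array 3, FBC array 1 or FBC array 2, and 2 without FB arrays 2 and 3, and S100a8 lost its call without any of FB arrays 2 and 3 and FBC arrays 1, 2 and 4 (adjusted p = 0.0528 to 0.0658).

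Other genes among the 12 lowest were receptors and enzymes of myeloid cells. F5, coagulation factor V, was at 8.22, 10.19, 10.85 and 10.06 in FB and 5.71, 6.14, 5.90 and 6.18 in FBC (-3.85 ± 0.61, adjusted p = 0.00112). Hdc, which makes histamine, was at 8.95, 10.00, 9.83 and 10.42 in FB and 6.22, 5.93, 6.52 and 6.33 in FBC (-3.55 ± 0.34, adjusted p = 2.97e-05). For both, FB array 1 was the lowest FB array and still lay above the FBC group. Fpr2, the formyl peptide receptor, was at 11.62, 12.29, 12.37 and 12.37 in FB and 8.76, 8.05, 8.74 and 9.33 in FBC (-3.44 ± 0.33, adjusted p = 3.28e-05). Klra2 (-3.42 ± 0.55), a C-type lectin receptor, Ceacam1 (-3.31 ± 0.42), an adhesion molecule, and Trem1 (-3.22 ± 0.54), a receptor that amplifies inflammation, followed, with adjusted p of at most 0.00159. Ceacam1 differed by -2.17 on the mean of its probe sets.

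**Figure D3:**
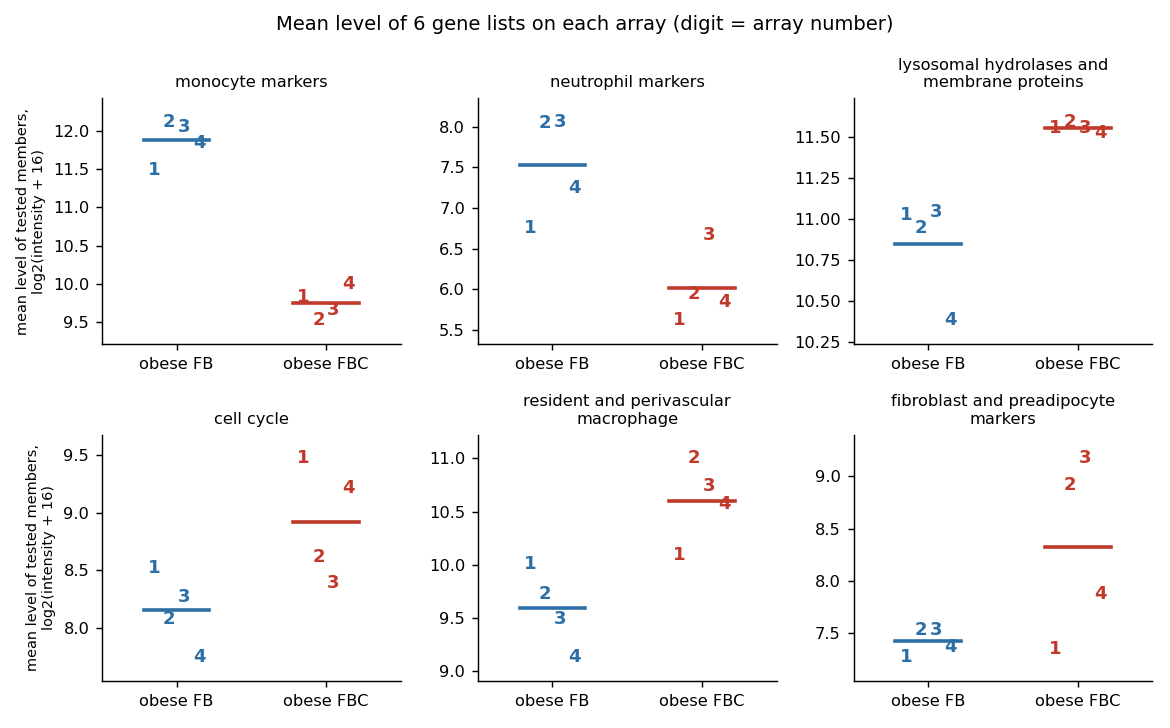
Mean level of the tested members of 6 gene lists on each of the 8 arrays, in log2(intensity + 16), with digits giving the array number and bars the group means; the vertical scales differ. Monocyte markers separate the groups by a wide gap (11.49 to 12.12 against 9.52 to 9.99), neutrophil markers by little, and fibroblast markers stand out on FBC arrays 2 and 3 (8.92 and 9.17).

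Of 21 genes of classic activation 6 were lower and 1 higher, with a median of -0.35. Of all tested genes 3.28% were called lower and 5.11% higher. Lower were Fpr2, Il6 (-2.04 ± 0.31, adjusted p = 0.000874), Cd80 (-1.74) and Cd86 (-0.90), the costimulatory ligands for T cells, Ptgs2 (-1.65), the inducible cyclooxygenase, and Il23a (-0.99). Il6 was at 11.36, 12.80, 12.68 and 12.36 in FB and 10.18, 10.25, 11.11 and 9.49 in FBC. The FBC arrays were all lower, with FBC array 3 only narrowly below FB array 1. The single member that was higher was Il12b (2.07 ± 0.49, adjusted p = 0.0147), the p40 chain shared by interleukins 12 and 23, at 5.64, 5.78, 5.54 and 5.88 in FB and 8.10, 6.72, 7.23 and 9.07 in FBC. It was near background on all FB arrays and highest on FBC arrays 1 and 4. Tnf (0.24), Il1b (-0.35), Cxcl10 (-0.23) and Ccl5 (0.33) were not called. Without FBC arrays 2 and 3 the list had 3 lower members.

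Lif, the leukemia inhibitory factor of the interleukin 6 family, had the smallest p of the comparison. It was at 9.23, 9.57, 9.16 and 9.27 in FB and 6.42, 5.96, 5.84 and 5.87 in FBC (9.75-fold lower, -3.29 ± 0.22, adjusted p = 5.9e-07). Both groups were tight and far apart. With the mean of its probe sets, of which the other did not share the direction, Lif differed by -1.64 and stayed called. Osm, a cytokine of the same family, was lower by less (-1.29 ± 0.39, adjusted p = 0.0482) and lost its call without any one of 7 arrays, FBC array 1 being the exception (adjusted p = 0.0731 to 0.129). Of 22 growth factors 2 were lower, these cytokines, and 2 higher, Fgf13 (2.05 ± 0.28, adjusted p = 0.000327), an intracellular member of its family, and Pdgfb (0.85), a mitogen for mesenchymal cells. On the mean of its probe sets Fgf13 differed by 0.98 and stayed called. Igf1 (0.49), Vegfa (-0.18) and Tgfb1 (-0.12) were not called.

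Of 17 genes listed as chemokine receptors 5 were lower and 1 higher, beside 3.28% and 5.11% of all genes, with a median of -0.45. The median lay at -0.23 without FB array 3 or FBC array 2, at -0.26 without FB array 4 and at -0.11 without FBC arrays 2 and 3, with 3 or 4 lower. Cx3cr1, the fractalkine receptor, was at 10.77, 11.15, 11.02 and 10.06 in FB and 9.22, 8.23, 8.39 and 8.73 in FBC (-2.11 ± 0.32, adjusted p = 0.000817). No array overlapped. Cxcr2, Ccr2, Ccr1 (-0.78) and Fpr2 were the others lower, and only Ccr7 was higher. Fpr2 is in the list but is a formyl peptide receptor, not a chemokine receptor. The chemokines themselves had 1 of 25 higher, Ccl22, and 2 lower, Cxcl3 (-1.67 ± 0.43, adjusted p = 0.0226) and Ppbp (-0.96 ± 0.26, adjusted p = 0.0288), both ligands of neutrophil receptors. Cxcl3 was highest on FB array 4 (11.67 against 9.88 to 10.16), and without that array its adjusted p was 0.0737 and that of Ppbp 0.0912. Without FBC array 2 these were 0.0789 and 0.106, without FBC array 3 they were 0.0662 and 0.083, and without FB array 2 that of Ppbp was 0.0644. Ccl2 (-0.12), the chemokine that draws monocytes, and Ccl3 (-0.45) were not called.

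Of 22 interferon-stimulated genes 1 was lower, Isg20 (-1.66 ± 0.31, adjusted p = 0.00368), an exonuclease, and the median was -0.22. Of 15 Toll-like receptors and partners 1 was higher, Tlr3 (1.13 ± 0.23, adjusted p = 0.006), the sensor of double-stranded RNA. None of 9 Fc receptor genes passed limma's threshold. Of 14 leukocyte integrins, Itgax not counted, Itgal and Itga4 (-1.07 ± 0.24, adjusted p = 0.0119) were lower. Among 26 myeloid transcription factors Sox4 (1.65 ± 0.37, adjusted p = 0.0103), Irf4 and Nr1h3 were higher and Runx3 (-2.24 ± 0.65, adjusted p = 0.0436) and Id3 (-1.35 ± 0.26, adjusted p = 0.00476) lower. Runx3, a factor of lymphocytes and dendritic cells, was highest on FB array 4 (10.44 against 8.79 to 9.23). Its call ended without any obese array but FB array 1 (adjusted p = 0.06 to 0.134), and with the mean of its probe sets (-1.11, adjusted p = 0.0584). On that mean Sox4 differed by 0.49 and stayed called. Spi1 (-0.50) and Cebpb (-1.15), which shape the myeloid lineage, were not called.

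Genes of resident and perivascular macrophages had the highest median of all lists, 1.13, with 3 of 26 higher and 0 lower. Of all tested genes 5.11% were called higher. Fcna, a lectin that starts complement, was at 9.07, 9.09, 8.71 and 8.09 in FB and 9.81, 12.00, 11.16 and 10.57 in FBC (2.14 ± 0.56, adjusted p = 0.0254). The groups were separate, with FBC array 1 much closer to FB than FBC array 2. Vsig4, the complement receptor of tissue macrophages, was at 9.07, 9.46, 9.05 and 8.77 in FB and 10.06, 11.31, 11.33 and 10.96 in FBC (1.83 ± 0.41, adjusted p = 0.0106). Marco (1.93 ± 0.42, adjusted p = 0.0098), a scavenger receptor for particles and bacteria, was near background in FB. Folr2 (2.01), Cd209b (1.76), Lyve1 (1.47), Cd163 (1.13) and Timd4 (0.83) were not called. The list stood at 10.01, 9.72, 9.49 and 9.13 on the FB arrays and at 10.09, 11.00, 10.74 and 10.57 on the FBC arrays. FBC array 1 was hardly above FB array 1, and the other FBC arrays were clearly above. Without FBC arrays 2 and 3 the median was 0.75 and 1 member was called, and without FB arrays 2 and 3 also 1. The count was 13 with array weights and 13 with the replicate block of array number. It was 9 with only the 2 groups compared and 6 with the array number as a random block. Without the 3 arrays of high actin ratio in the series 10 were called, and without FB array 4 alone 2. Of those 3 only FB array 4 is in the comparison. The others, lean FB array 4 (53.3) and lean FBC array 4 (48), enter through the shared estimate of the spread. With the actin ratio as a covariate the median was 0.46 and 2 members were called. Vsig4 lost its call without FBC arrays 2 and 3 (adjusted p = 0.138). The call of Fcna ended without FB array 3 (adjusted p = 0.0525), FB array 4 (0.0816), FBC array 2 (0.0944) or FBC array 3 (0.0628).

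Fibroblast markers moved with these arrays. Of 19 tested, 1 was called, Gsn (0.65, adjusted p = 0.044), an actin-severing protein, and the median was 0.86. The call of Gsn held only when FB array 4 or FBC array 1 was the one left out, and otherwise ended (adjusted p = 0.0574 to 0.125). The mean level was 7.27, 7.53, 7.53 and 7.37 on FB arrays and 7.35, 8.92, 9.17 and 7.87 on FBC arrays, so FBC arrays 2 and 3 stood apart, and the summed level ranged from 13.18 to 13.61 in FB and from 13.62 to 14.92 in FBC. The collagen gene Col3a1 lay between 9.31 and 10.10 in FB and between 9.93 and 12.17 in FBC. Endothelial markers (5.69 to 6.43 in FB, 5.86, 7.02, 7.10 and 6.35 in FBC) and mesothelial markers (5.18 to 6.22 in FB, 5.52, 6.41, 6.68 and 5.26 in FBC) were highest on the same arrays, with 0 of 13 members called in either list by limma. Among endothelial markers, Pecam1 was below the array median on all 8 arrays, while Kdr was above it on all 8 and Cdh5 on 5. Without FBC arrays 2 and 3 the fibroblast median was 0.25, and 406 genes were called over the whole comparison. The part of these cells in the resident, complement, scavenger and oxidation genes was not tested.

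Receptors and bridges that clear particles and dying cells were higher in part. Of 16 scavenger receptors 3 were higher, Marco, Stab2 (1.33 ± 0.14, adjusted p = 4.77e-05), an endocytic receptor for hyaluronan, and Cd5l (0.96), and 1 lower, Olr1 (-2.06 ± 0.51, adjusted p = 0.0185), the receptor for oxidised lipoprotein. Stab2 was at 6.80, 6.85, 6.71 and 6.46 in FB and 7.93, 8.09, 8.10 and 8.01 in FBC, with little spread in either group. Of 24 genes of apoptotic cell clearance 4 were higher and 2 lower. Mfge8, which bridges phosphatidylserine on dying cells to integrins, was at 9.16, 8.35, 8.36 and 8.09 in FB and 11.04, 9.67, 10.74 and 10.50 in FBC (2.00 ± 0.29, adjusted p = 0.000593). Every FBC array was higher, array 2 least. Stab2, Lrp1 (1.26), a receptor for many ligands, and Axl (1.05), a receptor kinase for Gas6, were the others higher, Thbs1 and Cd300lf (-2.35 ± 0.63, adjusted p = 0.0281), a receptor for lipids on dying cells, the ones lower, and Mertk (0.79) was not called. Olr1 lost its call without FB array 4 (adjusted p = 0.0666), FBC array 2 (0.0736) or FBC array 3 (0.0613), and Cd300lf without any obese array but FB array 1 and FBC array 3 (adjusted p = 0.0584 to 0.0822).

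Of 17 complement genes C6 (1.95 ± 0.37, adjusted p = 0.00399), a chain of the membrane attack complex, and Vsig4 were higher and 0 lower, with a median of 0.74, and C1qa (1.08) and C1qc (1.31) were not called. Of 18 iron and heme genes 1 was higher (5.56%), near the 5.11% of all tested genes. It was Blvra (0.72 ± 0.18, adjusted p = 0.0178), which reduces biliverdin, while the iron exporter Slc40a1 (1.29) and Hmox1 (-0.23) were not called. The call of Blvra ended without FB array 2 (adjusted p = 0.0607), FB array 4 (0.0544) or FBC array 2 (0.0598).

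Of 30 tested cell division genes 9 were higher in FBC and 0 lower, with a median of 0.83, beside 5.11% of all tested genes called higher. Cdk1, the kinase that starts mitosis, was at 7.63, 7.12, 7.50 and 6.43 in FB and 9.42, 8.15, 8.26 and 8.85 in FBC (2.83-fold, 1.50 ± 0.32, adjusted p = 0.00786). Bub1, a checkpoint kinase, was at 6.69, 6.27, 6.28 and 6.27 in FB and 8.38, 7.34, 7.16 and 7.98 in FBC (1.34 ± 0.25, adjusted p = 0.00346). For both, FBC arrays 1 and 4 were the highest. With the mean of its probe sets Bub1 differed by 0.70 (adjusted p = 0.0987). Birc5 (1.15 ± 0.23, adjusted p = 0.00577), survivin, and Nusap1, Kif20a, Bub1b, Aurkb, Aurka and Plk1 (0.93 to 1.14), which build the spindle and part the cells, were also called. The called members act in mitosis. Genes of DNA replication, Mcm2 (0.10), Mcm4 (-0.20), Mcm5 (0.11) and Cdc6 (0.06), and the general marker Mki67 (0.34) were not called. The mean level of the list was 8.52, 8.08, 8.27 and 7.75 on the FB arrays and 9.47, 8.62, 8.39 and 9.21 on the FBC arrays, so FBC array 3 lay below FB array 1. Without FBC arrays 2 and 3 the count was 13 and the median 1.23; it was 12 without FBC array 3 and 5 without FB array 4, FBC array 1, FBC array 2 or FBC array 4, and 6 without FB array 2 or 3.

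Genes that interleukin 4 induces were mixed, 3 of 25 higher and 1 lower with a median of 0.14. Socs2 (2.00 ± 0.22, adjusted p = 7.75e-05), a brake on cytokine signals, Ccl22 and Irf4 were higher, Chil3 was lower, and Arg1 (0.92), Retnla (-0.03) and Mrc1 (0.51) were not called. With the mean of its probe sets in place of the brightest, Socs2 differed by 0.15 (adjusted p = 0.539), and its call ended. Of 17 metalloproteinases and inhibitors Mmp12, Adam8 and Timp2 (1.28) were higher and Mmp8 and Adamdec1 (-1.71 ± 0.50, adjusted p = 0.0434) lower. Of 24 targets of the amino acid stress factor Atf4, Asns (1.28 ± 0.18, adjusted p = 0.000495), asparagine synthetase, was higher, and Slc7a11 (-1.56 ± 0.32, adjusted p = 0.00634), the cystine transporter, and Atf4 itself (-0.77 ± 0.16, adjusted p = 0.00834) lower, the last not so with the mean of its probe sets (-0.17, adjusted p = 0.477). Of 27 immediate early and tissue digestion genes 1 was lower, Nr4a2 (-1.52 ± 0.29, adjusted p = 0.00408), and the median was 0.03, while Fos (-0.09), Jun (0.38) and Egr1 (0.20) were not called. Adamdec1 lost its call without any obese array but FB array 1 (adjusted p = 0.0601 to 0.117).

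Of each list of markers of other cells below, at most 1 gene was called higher and 1 lower. Over all tested genes 5.11% were called higher and 3.28% lower. The genes Cd3d, Cd3e, Cd3g and Cd79a of lymphocytes, Epx and Prg2 of eosinophils and Cidec of adipocytes were below the array median on all 8 arrays. Adipoq of adipocytes was above it on 4, at 4.26 to 5.91 in FB and 5.81 to 6.40 in FBC. All 8 tested adipocyte genes had differences above 0, with a median of 0.40. Of 9 tested T and NK cell markers Il7r (2.18 ± 0.32, adjusted p = 0.000586), a cytokine receptor chain, was higher, and of 8 B cell markers Cd22 (1.31 ± 0.32, adjusted p = 0.0175), an inhibitory lectin, was higher and Ms4a1 (-1.23 ± 0.34, adjusted p = 0.0318) lower. Of 5 mast cell markers Kit was higher and Hdc lower. None of 8 adipocyte, 2 eosinophil and 2 erythroid genes passed limma's threshold, though Siglecf, a lectin of eosinophils, ranged from 5.77 to 8.99 in FB and 5.79 to 6.32 in FBC. Cd22 lost its call without FB array 4 (adjusted p = 0.0621) or FBC array 4 (0.0575), and Ms4a1 without any obese array but FB arrays 1 and 4 (adjusted p = 0.0519 to 0.0994).

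The same gate in lean mice, on arrays that the obese comparison does not share, gave 23 called genes (0.193%), 18 higher (0.151%) and 5 lower (0.0420%), with 976 at an unadjusted p under 0.05. Lean FB array 4 (53.3) and lean FBC array 4 (48) had the highest actin ratios of the series, against 2.32 to 10.9 on the other lean arrays. Without the 3 arrays of high actin ratio in the series the lean count was 15. It was 8 without lean FB array 2, lean FBC array 2 or lean FBC array 3. Without lean FB array 3 it was 9 and without lean FBC array 4 it was 14. Lean FB array 4 and lean FBC array 4 deviated together (residual correlation 0.595). Lean arrays 1 to 3 correlated by 0.135 to 0.299 within a number and by 0.0146 to 0.367 across numbers, so pairs by number did not stand out among them. With the array number as a block the lean count was 51. Of the 23 lean calls, 17 were also called in obese mice and in the same direction. That is 73.9% of the lean calls and 1.70% of the obese calls. Besides Itgax the 17 include Mmp12 (3.48 in lean, 4.25 in obese mice), Fscn1 (2.06 and 3.27), Ccr7 (2.07 and 1.99) and Dcstamp (1.88 and 1.88). Others are Rnf128 (2.94 and 1.59), a ubiquitin ligase, Bub1 (1.33 and 1.34), Vcan (-1.73 and -4.01) and S100a8 (-3.11 and -2.40). Of the 609 genes higher in obese FBC, 74.5% were above 0 in lean mice, with a median of 0.21, and of the 390 lower, 74.4% were below 0, with a median of -0.18. Over all tested genes, 54.4% had the same sign in both genotypes, and the lean FBC arrays lay wholly above the lean FB arrays for 3.49% and wholly below for 2.15%. Monocyte markers had a median of -0.37 in lean and -2.38 in obese mice, lysosomal genes 0.02 and 0.62, and resident macrophage genes -0.26 and 1.13. For neutrophil markers the medians were -1.12 and -1.32, and for cell division genes 0.65 and 0.83. Lean resident macrophage genes had a mean level of 10.11 on FB array 4, 9.39 on FBC array 4 and 11.35 to 11.52 on the others. Lean monocyte markers were at 11.83 on FB array 4 and at 10.50 to 10.64 on the other FB arrays. What the lean medians owe to these arrays was not tested.

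The test of the difference itself, FBC against FB in obese mice minus the same in lean mice, called 19 genes (0.160%), 10 higher (0.0840%) and 9 lower (0.0756%), and 1576 at an unadjusted p under 0.05. With the array number as a block the count was 230. Lif had the clearest difference (-2.72, adjusted p = 0.00155). In lean mice it was at 7.77, 8.15, 8.21 and 8.89 in FB and 7.80, 7.43, 7.61 and 7.92 in FBC, groups that overlapped, while in obese mice the groups lay far apart. Pkp2 was next (2.80, adjusted p = 0.00739), at 6.04, 5.93, 6.41 and 5.52 in lean FB and 5.84, 5.13, 5.29 and 5.63 in lean FBC, overlapping as well. Rusc2 (3.61, adjusted p = 0.0418), Lims2 (2.93, adjusted p = 0.0454), Htr2b (2.68, adjusted p = 0.0348), Mfge8 (2.19, adjusted p = 0.0457), Slurp1 (1.96, adjusted p = 0.0412) and Stab2 (1.08, adjusted p = 0.0418) were more FBC-biased in obese mice. Plcb1 (-2.57), Slc7a11 (-2.57), Efnb2 (-2.15), Ear3 (-1.94) and Calcb (-1.90) were less so, with adjusted p of 0.0251 to 0.0457. Calcb, a calcitonin-related peptide, was higher in FBC of lean mice (2.03, adjusted p = 0.00286) and flat in obese mice (0.13 ± 0.26). Lif kept its call under 31 of 31 alternatives and Pkp2 under 29 of 30. Each of the other 11 kept it under 12 to 26. The count of called genes ran from 2 to 349 as single arrays were left out. It was 349 without lean FB array 4, 62 without obese FB array 1, and at most 20 without any other. Lean FB array 4 had the highest actin ratio of the series (53.3), and without the 3 arrays of high actin ratio the count was 298.

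**Figure D4:**
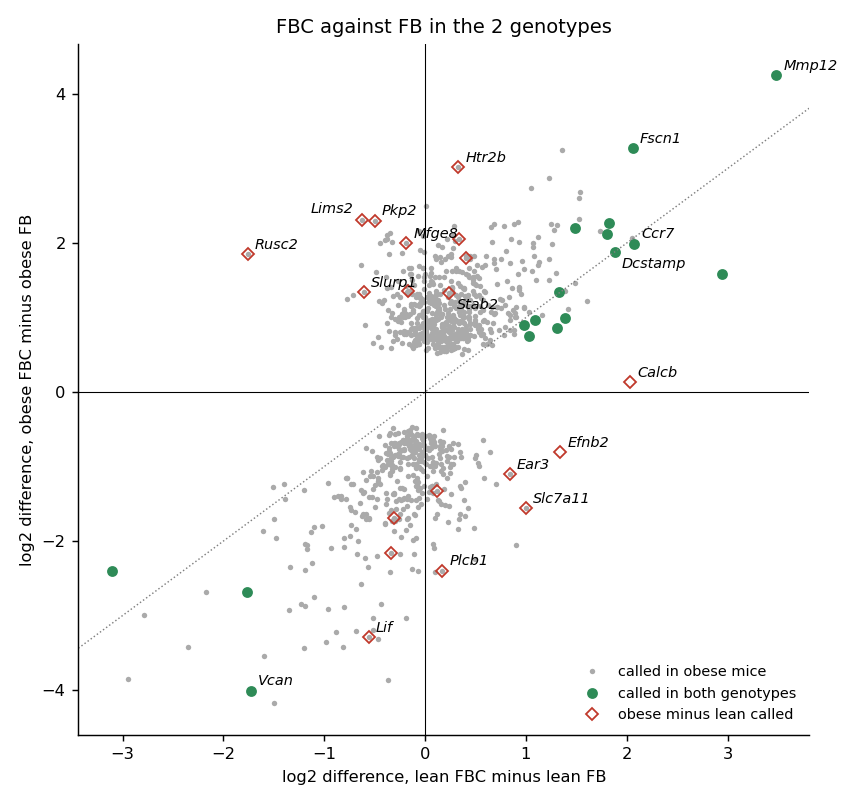
Log2 difference between FBC and FB in lean mice (horizontal) and obese mice (vertical) for the 999 genes called in obese mice and the 19 called for the difference between genotypes; green points were called in both genotypes and red diamonds for the difference, and the dotted line marks equal differences. Most points lie nearer to 0 on the lean axis, Mmp12 and Fscn1 are high on both, and Lif, Pkp2 and Htr2b lie far from the dotted line.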

How the data were processed

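The values deposited by the authors are linear intensity per probe set of Affymetrix whole-genome mouse arrays. The submitters' processing notes name Affymetrix Expression Console, and for its version and its way of summarising probes the entry is: not given in the sources used here. In these values the mean of each array, trimmed by 2% at either end, was 250. Here 16 was added, log2 was taken, and the 16 arrays were quantile normalized over 45101 probe sets. Probe sets with 1 gene symbol (34945) were kept, 932 with several and 9160 with none left out, and the brightest on average stood for each of 18193 genes. The 11908 genes that exceeded the array median on 4 or more arrays entered 1 limma model of the 4 groups (12 residual degrees of freedom) with Benjamini-Hochberg adjustment, tested on simulated data.

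Named genes are the 12 highest and 12 lowest called genes without overlap, up to 3 called members of each list with the largest differences, 6 genes each way in the genotype difference, and the sort markers. Symbols of clones and predicted models were left out of the leading 24. Other list members are named to describe their list. The members and lists were chosen with earlier results of these data known. Same-numbered FB and FBC arrays had residual correlations of 0.31, 0.0333, -0.0297 and -0.137 in obese mice. In lean mice they were 0.135, 0.231, 0.299 and 0.595, all above the 0.1 set here as a sign of pairing. Different numbers passed it too, and lean FB array 1 correlated more with FBC arrays 2 and 3 (0.271 and 0.367). The lean arrays of number 4 (0.595) were those of high actin ratio. The model has no block, and block values stand beside the results that use lean arrays. Alternatives covered filters, probe set choice, normalization, the pseudocount, eBayes settings, array weights, blocks, actin ratio and left-out arrays. R 4.3.3, limma 3.58.1, Python 3.11.15, pandas 2.3.3, numpy 2.4.6 and matplotlib 3.10.9 were used. The number of arrays limits the precision.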

Additional observations from a re-analysis of the deposited data

Results flagged for a closer look

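In 11 of 194 groups of 4 arrays, 1 array lay far from the other 3 (its gap to the nearest, as a share of the range, passed Dixon's critical value), and chance gives about 1 in 20. FB array 1 of obese mice was the lowest for Vcan (9.51 against 10.82 to 10.83), Fpr2 (11.62 against 12.29 to 12.37) and Id3 (9.59 against 10.16 to 10.26), and the highest for Bub1 (6.69 against 6.27 to 6.28) and Marco (4.49 against 4.16 to 4.18). FB array 4 was the lowest for Ctsf (4.17 against 6.24 to 6.46) and the highest for Cxcl3 (11.67 against 9.88 to 10.16). FB array 2 was the lowest for Slurp1 (4.52 against 4.81 to 4.83). FBC array 3 was the lowest for Wfs1 (10.53 against 11.12) and the highest for S100a8 (9.07 against 6.16 to 6.65) and Cd300lf (7.42 against 6.59 to 6.72).

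By limma's test of the difference itself, 13 named genes differed between obese and lean mice in FBC against FB. The obese minus lean values below 0 were those of Lif (-2.72, adjusted p = 0.00155), Plcb1 (-2.57, adjusted p = 0.0418), Slc7a11 (-2.57, adjusted p = 0.0418), Efnb2 (-2.15, adjusted p = 0.0418), Ear3 (-1.94, adjusted p = 0.0251) and Calcb (-1.90, adjusted p = 0.0457). Those above 0 were Stab2 (1.08, adjusted p = 0.0418), Slurp1 (1.96, adjusted p = 0.0412), Mfge8 (2.19, adjusted p = 0.0457), Htr2b (2.68, adjusted p = 0.0348), Pkp2 (2.80, adjusted p = 0.00739), Lims2 (2.93, adjusted p = 0.0454) and Rusc2 (3.61, adjusted p = 0.0418). Ear3 belongs to a family of near-identical genes, so its probe set may read relatives.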

How the results depend on the processing

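The 999 genes called in obese mice (609 higher, 390 lower) became 2202 (1285 and 917) with array weights, 1655 (1063 and 592) with the replicate block of array number, 1746 (1094 and 652) with the number as a random block and 555 (335 and 220) with a 2-fold minimum. Without FBC arrays 2 and 3, an alternative chosen after seeing the data, there were 406 (277 and 129), and without FB arrays 2 and 3, chosen likewise, 172 were lower. Leaving out single arrays gave 553 to 1053 calls (327 to 589 higher, 226 to 464 lower). In lean mice the 23 calls became 37 with a stricter filter, 42 with median centring, 1324 with array weights, 9 with only the 2 groups, 51 with the replicate block, 74 with the random block, 62 with the actin ratio as a covariate, 15 without the 3 arrays of high actin ratio and 8 to 25 without single arrays. For the obese minus lean difference the 19 calls became 3 without a filter, 9 over all probe sets, 4 with a pseudocount of 1, 30 with trend and robust settings, 1536 with array weights, 230 with the replicate block, 158 with the random block, 298 without the 3 arrays of high actin ratio, 2 without FBC arrays 2 and 3, 1 without FB arrays 2 and 3 and 2 to 349 without single arrays. The cause of these moves was not tested. In obese mice the array numbers were not taken as pairs. Of 93 called named genes 63 kept their call under every alternative but those chosen after seeing the data. Neither gene that changed sign was called: Calcb was at -0.06 with array weights, -0.04 without the 3 arrays of high actin ratio, -0.01 without FBC arrays 2 and 3 and -0.04 without FB array 4, and Itgam at 0.11 without quantile normalization, 0.10 with median centring, 0.13 without FBC arrays 2 and 3, 0.38 without FB arrays 2 and 3, and -0.25 to 0.26 without single arrays. Differences of genes near background, such as Htr2b, Pkp2 and Marco in FB or Cd177 and Klra2 in FBC, are limited by their dim side.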

Other observations

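The following lists were put together after their values were seen and carry no test of their own. Genes of Ly6C-low monocytes, the cells that patrol vessels, were lower in 9 of 15 tested members, with a median of -1.45. They include S1pr5 (-2.84), a receptor for the lipid that guides cells into blood, Adgre4 (-2.10), Ace (-1.70), Bcl2 (-1.46), a survival factor, and Dusp16 (-1.09), besides Treml4, Itgal, Cx3cr1 and Spn. Of 9 genes of the TREM receptors and their adaptors 4 were lower, Trem1 (-3.22), Trem3 (-2.84), Treml2 (-1.96) and Treml4 (-3.35), while Trem2 (1.51, adjusted p = 0.247) and the adaptor Tyrobp (-0.29) were not called.

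Of 8 clade B serpins, mostly inhibitors of proteases within cells, 4 were higher, Serpinb6b (2.24), Serpinb9b (1.94), Serpinb6a (1.90) and Serpinb9 (1.39), and Serpinb2 (-3.21), an inhibitor of plasminogen activators, lower. These serpins are close relatives in sequence, so probe sets may read more than 1 of them.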
